A study of Mus musculus with 9 samples.

Results

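The 10 genes described here belong to the LIF and STAT3 pathway: the cytokine gene *Lif*, the receptor genes *Lifr*, *Il6st* and *Osmr*, the kinase gene *Jak1*, the transcription factor gene *Stat3*, the inhibitor gene *Socs3*, and *Bcl3*, *Pim1* and *Pim3*, which are known as genes that STAT3 activates. They were chosen by symbol, and the Ensembl ID of each was found among the 54232 genes counted, so all 10 were measured. The libraries were poly(A) RNA-seq of mouse pluripotent stem cells of strain C57 x CBA, from 1 line that carries GFP driven by the distal *Oct4* promoter (OG2). Naïve mESCs were grown in serum and LIF (S/L medium) on mitomycin C-treated mouse embryonic fibroblast (MEF) feeders. Primed cells (mEpiSCs) were converted from them in F/A medium, which holds bFGF and Activin A and for which LIF is not among the named additives, and were kept on feeders as well. Each state was sequenced at passage 5 (P5) and passage 15 (P15) with 2 libraries, and 1 library came from MEFs alone, which makes 9 libraries. The libraries of a state are therefore samples of 1 line, and nothing in the labels says that they came from separate cultures.

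LIF is a cytokine that binds its receptor LIFR, which then pairs with gp130, the signalling chain encoded by *Il6st* and shared by the whole interleukin-6 family. JAK kinases bound to the receptor tails phosphorylate STAT3, which moves into the nucleus and activates genes, among them *Socs3*, whose product binds gp130 and JAK and shuts the signal down. In mouse naïve cells this signal sustains self-renewal, whereas primed cells are held by FGF and Activin signals.

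Library totals lay between 14378051 and 20985136 counts outside MEFs and came to 25646547 counts in the MEF library. Every one of the 10 genes had at least 283 counts in each library. Levels are given as CPM, counts scaled to library size, after TMM scaling of the library sizes over the 9 libraries. The labels were checked against marker genes. The summed level of 5 naïve markers (*Zfp42*, *Esrrb*, *Klf2*, *Nr0b1* and *Tbx3*) lay between 1325 and 1504 CPM in naïve libraries. It was 147 and 144 CPM in primed P5 and 56.1 and 49.0 CPM in primed P15, with *Nr0b1* at 0 in 1 primed P15 library. *Zfp42* was at 17.6 and 17.0 CPM in primed P5 but at 0.230 and 0.227 CPM in primed P15. *Esrrb* was at 56.9 and 57.7 CPM in primed P5 and 4.59 and 3.52 CPM in primed P15. The summed level of 5 primed markers (*Fgf5*, *Otx2*, *Pou3f1*, *Cer1* and *T*) lay between 42.2 and 59.7 CPM in naïve and between 657 and 688 CPM in primed libraries, with *Cer1* at 0 in 3 naïve libraries. Fibroblast transcripts were found in every library. None of 30 fibroblast markers was at 0 in any of them, and their summed level was 11209 and 11264 CPM in naïve P5, 7078 and 6926 CPM in primed P5, 18294 and 19084 CPM in naïve P15, 16511 and 15894 CPM in primed P15 and 86241 CPM in MEFs. Of 6 markers of extraembryonic endoderm, *Afp* was at 0 in both libraries of naïve P5, primed P5 and naïve P15. *Ttr* was at 0 or at a single count in each library outside MEFs. The summed level was 34.9 to 49.8 CPM in naïve and 101 to 157 CPM in primed libraries, mostly from *Dab2*, which MEFs also expressed. *Dab2* was at 39.7 and 36.4 CPM in naïve P5 and 100 and 106 CPM in primed P5, where the fibroblast sum was lower. *Gata4* was at 4.87 and 5.195 CPM in naïve P5 and 35.2 and 36.1 CPM in primed P5. It was above MEFs there but below MEFs in primed P15. *Sox7* was at 0.6395 to 2.44 CPM in naïve and 10.3 to 13.6 CPM in primed libraries, against 0.468 CPM in MEFs. *Amn* was lower in primed libraries at each passage. Their source was not tested.

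STAT factors bind DNA at sites in which TTC and GAA face each other, so the windows around the RefSeq start sites of the 10 genes (250 bases before to 50 bases after the start, GRCm38.p6) were read for these letters. The motif TTCNNNGAA was found for 1 of the 10 genes, *Socs3*, against 9.55% of the 27025 gene symbols with a window. By window it was 8.30% of all 32851 RefSeq windows of this length. TTCNNNNGAA (6.95% of all windows) and TTCNNGAA (8.52%) were found for none of them, and each of the 3 motifs reads the same on both strands. The *Socs3* sequence is shown because it holds the match, and those of *Pim1* and *Pim3* because these targets had the 2 largest falls of the set at P15. That of *Lif* is shown as the gene that moved the other way. Each is printed from the 5′ end of the window to the base before the first GENCODE exon of the gene that the window reaches, and capitals mark the motif.
Socs3 (chr11:117969452-117969616, minus strand): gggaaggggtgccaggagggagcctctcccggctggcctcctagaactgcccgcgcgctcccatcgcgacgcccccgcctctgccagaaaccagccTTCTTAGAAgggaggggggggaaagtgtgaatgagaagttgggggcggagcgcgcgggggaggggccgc
Pim1 (chr17:29490535-29490752, plus strand): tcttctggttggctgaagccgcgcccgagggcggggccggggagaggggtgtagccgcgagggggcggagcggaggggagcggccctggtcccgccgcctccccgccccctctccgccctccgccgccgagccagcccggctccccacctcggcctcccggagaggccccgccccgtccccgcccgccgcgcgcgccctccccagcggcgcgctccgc
Pim3 (chr15:88861944-88862185, plus strand): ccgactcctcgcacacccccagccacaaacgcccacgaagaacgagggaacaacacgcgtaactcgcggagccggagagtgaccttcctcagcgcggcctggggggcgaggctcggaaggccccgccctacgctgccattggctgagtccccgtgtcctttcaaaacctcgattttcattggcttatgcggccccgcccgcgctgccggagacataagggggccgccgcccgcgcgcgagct
Lif (chr11:4257318-4257556, plus strand): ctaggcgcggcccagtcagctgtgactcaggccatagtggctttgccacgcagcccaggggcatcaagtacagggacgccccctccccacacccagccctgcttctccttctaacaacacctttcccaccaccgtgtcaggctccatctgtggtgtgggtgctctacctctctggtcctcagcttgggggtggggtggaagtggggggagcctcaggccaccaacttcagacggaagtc

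The *Socs3* match lies at chr11:117969512-117969520 on the minus strand, from base -154 to base -146 relative to the RefSeq start at base 117969366. The protein-coding transcript of GENCODE M21 starts further downstream, at base 117969186. A non-coding GENCODE transcript of the gene starts further upstream, at base 117970047, so that the printed stretch and the match lie within the annotated gene, in the first intron of that transcript. The windows also differed in base composition. The 250 bases before the *Lif* start held 6 CpG dinucleotides, the median of all windows, whereas those of *Socs3*, *Pim3* and *Pim1* (the first of its 2 start sites) held 26, 31 and 36. Its G and C bases made up 63.6%, against 71.6%, 68.0% and 82.4% in these 3 and a median of 52.4% over all windows.

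Whether the genes differ between the states was asked first. State and culture medium changed together, so each difference between the states is also one between the media, and these cannot be told apart. *Lif* was higher in primed cells at both passages, by 2.63-fold at P5 and 2.06-fold at P15, while *Lifr*, *Il6st*, *Bcl3*, *Pim1* and *Pim3* were lower at both. The call of *Bcl3* at P15 was lost in 8 of 13 alternative fits. *Pim1* fell the most, by 4.17-fold at P15. *Stat3* was 1.16-fold higher at P15 and *Jak1* passed the test at neither passage. The kinase and the factor of the set thus changed far less than its ligand and its *Pim* targets. Other JAK kinase genes, outside the set, did differ. *Jak2* was higher in primed cells at P5 and P15 (log2 0.82 and 0.91) and *Tyk2* lower (-0.41 and -0.64). *Jak3* was lower at P5 (-0.84) and did not pass the test at P15 (-0.21). At P5, primed cells had 1 of the 10 genes higher and 7 lower at the threshold, an adjusted p below 0.01 by the quasi-likelihood test of edgeR, adjusted after Benjamini and Hochberg across every gene in the fit. Of all genes tested at P5, 62.3% were called, 31.2% of them higher and 31.1% lower as shares of the genes tested. The median log2 difference was -0.43 over the 10 genes and 0.01 over all. With a fold change of at least 2 asked for as well, 1 gene (*Lif*) was called, where 22.3% of all genes were. At P15, 3 genes were higher and 5 lower, where 56.6% of all genes were called, 28.2% higher and 28.4% lower, and the medians were -0.10 and -0.00387. At least 2-fold changes were found at P15 in 4 of the 10 genes, *Lif* upward and *Lifr*, *Pim1* and *Pim3* downward, where 23.2% of all genes were called. In bulk RNA, fewer cells that express a gene and less RNA of it per cell cannot be told apart.

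**Figure D1:**
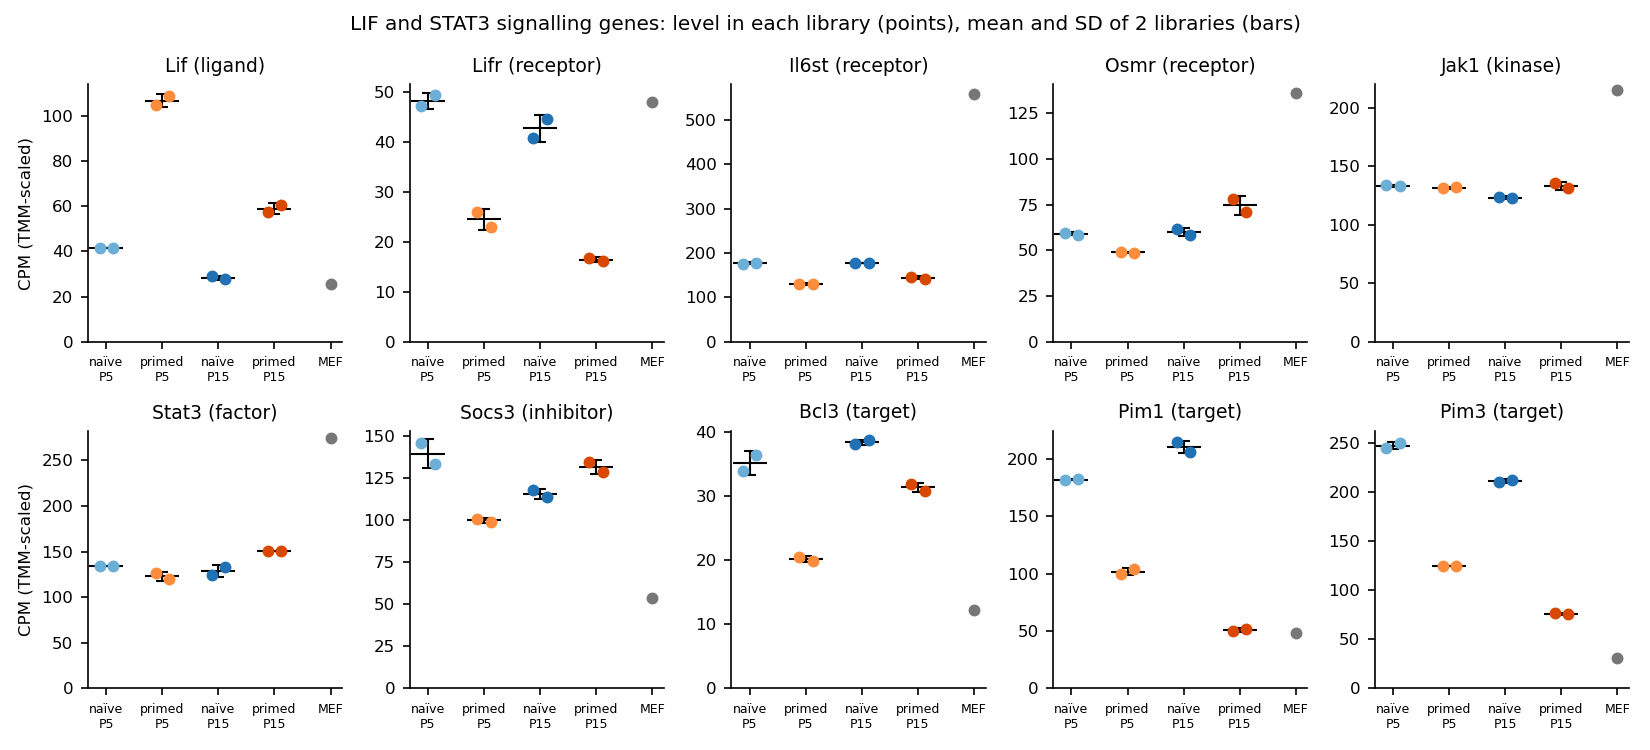
Level of each of the 10 genes in CPM (vertical axes, from 0) in the 9 libraries, grouped by state and passage. Points are libraries and bars the mean and SD of 2 libraries, with 1 library for MEFs. Lif is highest in primed P5 (105 and 109 CPM), and Pim1 and Pim3 are lowest, outside MEFs, in primed P15.

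*Lif* (chr11:4257557-4272514, plus strand, GRCm38) was at 41.3 and 41.5 CPM in naïve P5, 105 and 109 CPM in primed P5, 28.9 and 27.8 CPM in naïve P15 and 57.2 and 60.6 CPM in primed P15. Both primed libraries lay above both naïve libraries at each passage, and all 8 lay above the MEF library at 25.5 CPM. The log2 difference was 1.40 ± 0.05 (SE) at P5 (adjusted p = 5.54e-20, edgeR quasi-likelihood fit) and 1.04 ± 0.08 at P15 (adjusted p = 2.27e-13). Without naïve P15 replicate 2 the difference at P15 was 0.99, just under 2-fold. With the MEF counts taken off at the level of the lowest defining fibroblast marker of each library, the differences were 1.39 and 1.13, and at the median of the fibroblast list 1.50 and 1.28.

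The receptor gene *Lifr* (chr15:7090614-7197489, plus strand) went the opposite way to the gene of its ligand. It was at 47.1 and 49.3 CPM in naïve P5, 26.0 and 23.0 CPM in primed P5, 40.8 and 44.6 CPM in naïve P15 and 16.8 and 16.1 CPM in primed P15. The primed libraries were the lower at each passage without overlap, and the MEF library, at 48.0 CPM, lay within the range of the naïve P5 ones. The log2 difference was -0.94 ± 0.07 at P5 (adjusted p = 1.99e-12, edgeR quasi-likelihood fit) and -1.39 ± 0.10 at P15 (adjusted p = 7.06e-15). MEF counts at the level of the lowest defining marker would make up 5.48% and 6.01% of *Lifr* in primed P5 but 30.4% and 28.9% in primed P15, and with them taken off the differences were -0.99 and -1.73. At the median of the fibroblast list they would make up 73.5% and 75.9% of *Lifr* in primed P15, and the differences were -1.21 and -2.89.

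*Il6st* (chr13:112464070-112510086, plus strand) was at 176 and 179 CPM in naïve P5, 131 and 129 CPM in primed P5, 178 and 179 CPM in naïve P15 and 146 and 142 CPM in primed P15. The primed libraries were again the lower at each passage, by 1.33-fold at P5 (log2 -0.41 ± 0.04, adjusted p = 2.26e-10 by the edgeR quasi-likelihood fit) and 1.25-fold at P15 (log2 -0.32 ± 0.06, adjusted p = 2.13e-05). The MEF library held far more of it, 559 CPM. The 8 other libraries stood at 23.2% to 32.0% of that level, where the medians of the 30 fibroblast markers stood at 15.3% to 25.7%, and in primed P15 the gene (26.2% and 25.4%) and the marker median (25.7% and 25.4%) nearly met. How much of the *Il6st* RNA of these libraries came from feeders was not tested.

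*Osmr* (chr15:6813577-6874969, minus strand) encodes the receptor chain that pairs with gp130 for oncostatin M. It was at 59.8 and 58.6 CPM in naïve P5, 49.2 and 48.8 CPM in primed P5, 61.9 and 58.5 CPM in naïve P15 and 78.3 and 71.1 CPM in primed P15. Primed libraries thus lay below naïve ones at P5 and above them at P15. The log2 difference was -0.24 ± 0.06 at P5 (adjusted p = 0.000472, edgeR quasi-likelihood fit) and 0.30 ± 0.07 at P15 (adjusted p = 0.00054). Both calls were fragile. That at P5 was lost without primed P5 replicate 1 (-0.22, adjusted p = 0.012) or 2 (-0.21, adjusted p = 0.0155), by DESeq2's Wald test (-0.24, adjusted p = 0.0111) and with library size alone (-0.04, adjusted p = 0.57), and its adjusted p ranged from 7.18e-05 to 0.57 over 13 alternatives. That at P15 was lost without naïve P15 replicate 2 (0.23, adjusted p = 0.0237, with a range of 9.85e-06 to 0.0237 over the alternatives). Beside *Osmr*, the fibroblast list had risen between the passages in primed cells, and whether feeder RNA has a part in the *Osmr* value was not tested. With MEF counts taken off at the list median, the difference at P15 was 0.42 (adjusted p = 0.014).

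*Jak1* (chr4:101152367-101265282, minus strand), the main kinase of gp130 signalling, was at 134 and 133 CPM in naïve P5, 131 and 132 CPM in primed P5, 124 and 122 CPM in naïve P15 and 136 and 131 CPM in primed P15. The log2 difference was 0.01 ± 0.04 at P5 (adjusted p = 0.84, edgeR quasi-likelihood fit) and 0.10 ± 0.06 at P15 (adjusted p = 0.147), and only 1.10% and 12.6% of all genes tested had smaller ones. With library size alone, which shifts the median of all genes upward by 0.20 and 0.10, the differences were 0.21 at both passages.

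*Stat3* (chr11:100885098-100939540, minus strand) was at 135 and 134 CPM in naïve P5, 126 and 119 CPM in primed P5, 124 and 134 CPM in naïve P15 and 151 and 151 CPM in primed P15. The primed libraries were the lower at P5 and the higher at P15. The difference at P5 did not pass the test (log2 -0.09 ± 0.04, adjusted p = 0.0522, edgeR quasi-likelihood fit), and its sign turned to 0.11 with library size alone. The difference at P15 passed it (0.21 ± 0.06, adjusted p = 0.00338), but not in 5 of 13 alternatives. One of these left out naïve P15 replicate 1 (0.14), whose level was the lower of the pair. Over 13 alternatives the adjusted p at P15 ranged from 7.61e-05 to 0.133. The exons of *Stat3* share 72 bases with *Stat5a* on the opposite strand, which had at most 370 counts in a library against 1690 or more for *Stat3*.

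The inhibitor gene *Socs3* (chr11:117966079-117970047, minus strand) was at 146 and 133 CPM in naïve P5, 101 and 98.7 CPM in primed P5, 118 and 114 CPM in naïve P15 and 134 and 128 CPM in primed P15. It was thus lower in both primed libraries at P5 and higher in both at P15, and the MEF library was below all of them at 53.4 CPM. The log2 difference was -0.45 ± 0.05 at P5 (adjusted p = 7.92e-10, edgeR quasi-likelihood fit). At P15 it was 0.17 ± 0.06 and did not pass the test (adjusted p = 0.0165), but did in 6 of 13 alternatives, over which the adjusted p ranged from 0.000344 to 0.209. One of these left out primed P15 replicate 2 (0.24, adjusted p = 0.00566).

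*Bcl3* (chr7:19808462-19822770, minus strand), which encodes a nuclear IκB family protein that binds NF-κB subunits, was at 33.8 and 36.4 CPM in naïve P5, 20.4 and 19.8 CPM in primed P5, 38.0 and 38.6 CPM in naïve P15 and 31.8 and 30.8 CPM in primed P15. The primed libraries were lower at each passage without overlap, more so at P5. The log2 difference was -0.77 ± 0.08 at P5 (adjusted p = 1.2e-09, edgeR quasi-likelihood fit) and -0.30 ± 0.09 at P15 (adjusted p = 0.00323). The call at P15 was lost in 8 of 13 alternatives, over which its adjusted p ranged from 0.000804 to 0.0513. Among the 8 were the fits without naïve P15 replicate 2 (-0.32), primed P15 replicate 1 (-0.30) or primed P15 replicate 2 (-0.25).

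*Pim1* (chr17:29490753-29496112, plus strand) and *Pim3* (chr15:88862186-88865726, plus strand) encode short-lived serine/threonine kinases that act soon after cytokine signals. *Pim1* was at 182 and 183 CPM in naïve P5, 99.98 and 104 CPM in primed P5, 215 and 207 CPM in naïve P15 and 49.8 and 52.0 CPM in primed P15. *Pim3* was at 244 and 249.8 CPM in naïve P5, 124 and 125 CPM in primed P5, 209.7 and 212 CPM in naïve P15 and 76.7 and 75.3 CPM in primed P15. For both genes all primed libraries lay below all naïve ones, and the primed P15 libraries were the lowest of the 8. In MEFs *Pim1* was at 48.4 CPM, close to primed P15, and *Pim3* at 30.5 CPM. The log2 difference of *Pim1* was -0.81 ± 0.04 at P5 (adjusted p = 1.29e-16, edgeR quasi-likelihood fit) and -2.06 ± 0.07 at P15 (adjusted p = 2.79e-25). For *Pim3* the P5 value was -0.96 ± 0.04 (adjusted p = 3.93e-19) and the P15 value -1.48 ± 0.06 (adjusted p = 1.38e-21). At P15, 88.9% of all genes tested had a smaller difference than *Pim1* and 83.5% a smaller one than *Pim3*. *Pim1* exons share 488 bases with the antisense gene *Gm26885*, which had at most 13 counts in a library.

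**Figure D2:**
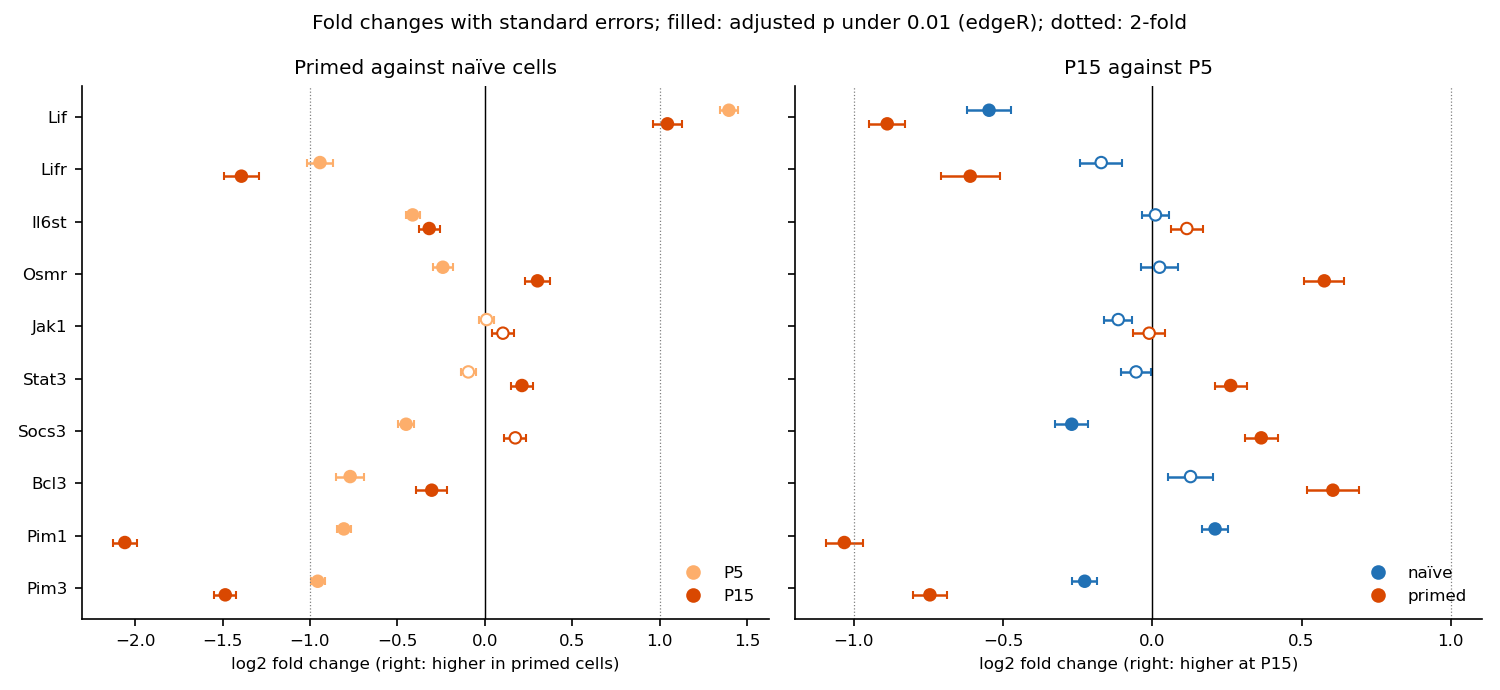
Log2 fold changes (horizontal axes) of the 10 genes between primed and naïve cells at each passage (left) and between P15 and P5 within each state (right), with standard errors of the fit as bars. Filled points had an adjusted p under 0.01 by the edgeR quasi-likelihood fit and dotted lines mark 2-fold. Lif lies to the right of 0 at both passages on the left, and on the right Pim1 rises in naïve cells (0.21) and falls in primed cells (-1.03).

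The second question was what continued passage did within each state. In naïve cells *Lif*, *Socs3* and *Pim3* fell and *Pim1* rose from P5 to P15, all by less than 2-fold, and the other 6 genes did not pass the test. That is 4 of 10 genes, where 9.22% of all genes tested were called (4.21% higher and 5.01% lower), and 0 of 10 at 2-fold, where 1.13% were. The log2 differences were -0.55 ± 0.07 for *Lif* (adjusted p = 0.000264, edgeR quasi-likelihood fit), -0.27 ± 0.05 for *Socs3* (adjusted p = 0.00441), -0.23 ± 0.04 for *Pim3* (adjusted p = 0.00261) and 0.21 ± 0.04 for *Pim1* (adjusted p = 0.00578). The call of *Lif* held in all 12 alternatives. The calls of *Pim1*, *Pim3* and *Socs3* were lost in 4, 3 and 4 of the 12. Among these, that of *Pim1* was lost without naïve P5 replicate 1 (0.20), naïve P5 replicate 2 (0.21) or naïve P15 replicate 1 (0.18). That of *Pim3* was lost without naïve P5 replicate 2 (-0.22). That of *Socs3* was lost without naïve P5 replicate 1 (-0.21) or naïve P15 replicate 2 (-0.24). In naïve cells 18 of the 30 fibroblast markers rose and 2 fell between the passages (median log2 0.43).

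In primed cells more of the set moved with passage, and in both directions. *Lif*, *Lifr*, *Pim1* and *Pim3* fell, while *Osmr*, *Stat3*, *Socs3* and *Bcl3* rose. These are 8 of 10 genes, where 47.1% of all genes tested were called (24.3% higher and 22.8% lower), and 1 of 10 (*Pim1*) at 2-fold, where 11.6% were. The falls on the log2 scale were -1.03 ± 0.06 for *Pim1* (adjusted p = 7.70e-14, edgeR quasi-likelihood fit), -0.89 ± 0.06 for *Lif* (adjusted p = 1.22e-12), -0.75 ± 0.06 for *Pim3* (adjusted p = 1.20e-11) and -0.61 ± 0.10 for *Lifr* (adjusted p = 8.11e-06). The rises were 0.61 ± 0.09 for *Bcl3* (adjusted p = 1.45e-06), 0.58 ± 0.07 for *Osmr* (adjusted p = 3.55e-08), 0.37 ± 0.06 for *Socs3* (adjusted p = 2.96e-06) and 0.26 ± 0.05 for *Stat3* (adjusted p = 0.000151). Without primed P15 replicate 1 *Pim1* came to -0.999, just under 2-fold, and without primed P5 replicate 2 *Stat3* was no longer called (0.20, adjusted p = 0.0334, with a range of 7.91e-07 to 0.0554 over 12 alternatives). Of the 30 fibroblast markers, 23 rose and 2 fell in the same libraries (median log2 0.87), and their part in the rises was not tested. *Bcl3* and *Socs3* were lower in MEFs than in every other library, and with MEF counts taken off at the list median their rises were 0.78 and 0.51. Of the 8 called genes, *Lifr* moved most when MEF counts were taken off, to -0.90 at the lowest defining marker and -1.88 at the list median. The naïve markers also fell from P5 to P15 in primed cells. Their log2 differences were -6.23 for *Zfp42*, -4.82 for *Nr0b1*, -3.85 for *Esrrb*, -0.51 for *Klf2* and -0.43 for *Tbx3*. Whether the changes of the set with passage are tied to this further loss of naïve transcripts was not tested.

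The state effect was then compared between the passages by an interaction term over the 8 libraries, where a positive value means a higher primed level relative to naïve at P15 than at P5. The effect differed for 8 of the 10 genes, where 24.1% of all genes tested were called (13.3% upward and 10.8% downward), and for 1 of 10 (*Pim1*) by at least 2-fold, where 7.16% were. The contrast became more negative for *Pim1* (log2 -1.24 ± 0.08, adjusted p = 1.84e-14, edgeR quasi-likelihood fit) and *Pim3* (-0.51 ± 0.07, adjusted p = 5.92e-07), and more positive for *Socs3* (0.64 ± 0.08, adjusted p = 7.41e-08) and *Osmr* (0.56 ± 0.09, adjusted p = 1.49e-05). These 4 differences held in each of 15 alternatives. The STAT3 target genes of the set thus parted between the passages, with *Pim1* and *Pim3* moving down and *Socs3* and *Bcl3* (0.48 ± 0.12, adjusted p = 0.00149) up. *Stat3* itself had a difference of 0.32 ± 0.07 (adjusted p = 0.000919). The call of *Bcl3* was lost in 3 of 15 alternatives, 2 of which left out naïve P5 replicate 2 (0.44) or primed P5 replicate 2 (0.44), with adjusted p from 0.00068 to 0.0163. That of *Stat3* was lost in 4 of 15, 1 of which left out primed P5 replicate 2 (0.26) and 2 of which took off MEF counts (0.27 and 0.36), with adjusted p from 7.24e-05 to 0.0299. The values of *Lif* (-0.33 ± 0.10, adjusted p = 0.0068) and *Lifr* (-0.43 ± 0.12, adjusted p = 0.00636) passed narrowly, and they held in 4 and 6 of 15 alternatives. With MEF counts taken off at the list median, that of *Lifr* was -1.66. *Il6st* (0.11 ± 0.07, adjusted p = 0.221) and *Jak1* (0.11 ± 0.07, adjusted p = 0.25) did not pass. The comparisons share libraries, so their values are not independent of each other.

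Set against each other per kb of exon, the 10 genes spanned a wide range. In naïve P5 the order by CPM per kb was *Pim3* (101 and 103), *Pim1* (54.0 and 54.3), *Socs3* (50.4 and 46.1), *Jak1*, *Il6st*, *Bcl3*, *Stat3*, *Lif* (9.50 and 9.54), *Osmr* and *Lifr* (4.37 and 4.58), and only the neighbours *Bcl3* and *Stat3* overlapped. In primed P15 *Socs3* led with 46.5 and 44.4 CPM per kb. *Pim3* followed with 31.6 and 31.0, while *Pim1* stood in the fifth place with 14.8 and 15.5. *Lif*, *Il6st* and *Bcl3* overlapped with their neighbours there, and *Lifr* was the last at 1.55 and 1.49. *Lifr* was the lowest of the 10 in each of the 8 libraries.

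The ligand gene and its receptor gene drew apart. The ratio of *Lif* to *Lifr*, both per kb, was 2.17 and 2.08 in naïve P5, 9.97 and 11.7 in primed P5, 1.76 and 1.54 in naïve P15, 8.46 and 9.33 in primed P15 and 1.32 in MEFs. All 4 primed ratios lay above all 4 naïve ones. Of the summed *Lifr* and *Osmr* level per kb, *Lifr* made up 47.0% and 48.6% in naïve P5, 37.3% and 34.6% in primed P5, 42.6% and 46.2% in naïve P15 and 19.4% and 20.3% in primed P15, with 28.3% in MEFs. The balance of these gp130 partners was thus tilted to *Osmr* in primed libraries and the more so at P15. At P5 *Osmr* was itself lower in primed libraries, but *Lifr* fell more. In primed P15, MEF counts at the list median would make up 73.5% and 75.9% of *Lifr* and 44.7% and 48.9% of *Osmr*. These shares were not tested on their own, nor was the part of feeder RNA in them.

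The other genes of the pathway put these values in context. A list of 49 further genes of interleukin-6 family and JAK-STAT signalling held 46 that could be tested. At P5, 19 of them were higher and 19 lower in primed cells, 7 and 10 by at least 2-fold, and at P15 19 were higher and 17 lower, 7 and 11 by at least 2-fold. That is 38 and 36 of 46 genes against the 62.3% and 56.6% of all genes given above, and the medians were 0.02 and 0.01. At 2-fold it is 17 and 18 of 46, where 22.3% and 23.2% of all genes were called. By role, 7 of the 10 further target genes were lower and 2 higher at each passage. Of 17 adaptors and inhibitors, 7 were higher and 7 lower at P5 and 7 and 5 at P15. Of all genes tested, 31.2% were higher and 31.1% lower at P5, and 28.2% and 28.4% at P15.

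Lower at both passages by at least 2-fold were *Klf4*, *Gbx2* and *Tfcp2l1*, transcription factors of naïve pluripotency that act downstream of LIF, besides *Sgk1*, a serum-induced kinase, and *Gab1*, an adaptor of receptor signalling. *Klf4* went from 762 and 761 CPM in naïve P5 to 46.2 and 49.6 CPM in primed P5 and from 551 and 535 CPM in naïve P15 to 52.0 and 55.8 CPM in primed P15, and the MEF library was at 57.6 CPM. *Tfcp2l1*, nearly absent from MEFs (0.851 CPM), went from 230.3 and 231 CPM to 38.2 and 36.4 CPM at P5 and from 222 and 218 CPM to 5.85 and 5.51 CPM at P15. The primed level of *Klf4* thus stayed near that of MEFs, while that of *Tfcp2l1* was lower still at P15 (interaction log2 -2.67, adjusted p = 3.28e-19 by the edgeR quasi-likelihood fit). The log2 differences at P5 and P15 were -3.96 and -3.34 for *Klf4*, -3.02 and -4.39 for *Gbx2*, -2.60 and -5.28 for *Tfcp2l1*, -2.52 and -2.37 for *Sgk1* and -1.45 and -3.12 for *Gab1*.

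Higher at both passages by at least 2-fold were *Pim2*, the third *Pim* kinase gene, *Cntfr*, the receptor chain that recruits LIFR and gp130 for CNTF, *Cebpd*, a C/EBP transcription factor gene, and *Stat2*, best known from interferon signalling. *Stat2* went from 40.7 and 37.7 CPM to 81.2 and 81.3 CPM at P5 and from 20.2 and 21.1 CPM to 90.9 and 92.3 CPM at P15. The primed libraries lay above the naïve ones at each passage, and the contrast was larger at P15 (interaction log2 1.07 ± 0.10, adjusted p = 3.05e-10 by the edgeR quasi-likelihood fit). The log2 differences at P5 and P15 were 1.08 and 2.14 for *Stat2*, 1.88 and 3.14 for *Pim2*, 1.33 and 1.62 for *Cntfr* and 1.22 and 1.69 for *Cebpd*. Oncostatin M (*Osm*), the ligand of OSMR, was rare and was named after its values were seen, with 17 and 15 counts in naïve P15 and 0 in both primed P15 libraries, so that it was at least 6.46-fold lower there when 3 counts per library are allowed for.

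**Figure D3:**
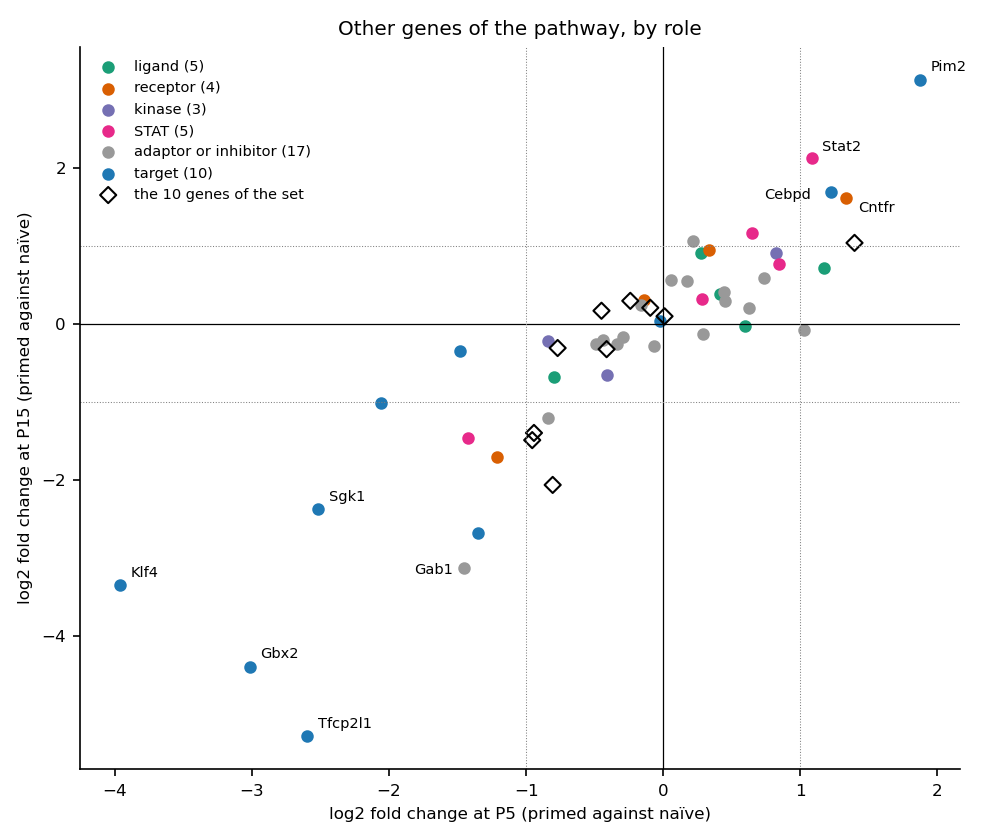
Log2 fold change between primed and naïve cells at P5 (horizontal axis) and P15 (vertical axis) of 44 further pathway genes coloured by role, with the 10 genes of the set as open diamonds. Osm, with 0 counts in primed P15, is left out. Dotted lines mark 2-fold. Klf4, Gbx2, Tfcp2l1, Sgk1 and Gab1 lie at the lower left and Pim2, Stat2, Cntfr and Cebpd at the upper right.

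*Pim2* took a share of the *Pim* transcripts that differed between the states. It was at 49.4 and 48.5 CPM in naïve P5, 170.4 and 181 CPM in primed P5, 42.9 and 37.8 CPM in naïve P15 and 360.4 and 352 CPM in primed P15, and at 5.06 CPM in MEFs. Per kb of exon it made up 10.2% and 9.95% of the summed *Pim* level in naïve P5, 42.9% and 44.1% in primed P5, 9.26% and 8.32% in naïve P15 and 73.5% and 73.1% in primed P15. The summed level itself moved much less, from 172 and 175 CPM per kb in naïve P5 and 166 and 162 in naïve P15 to 142 and 147 in primed P5 and 175 and 173 in primed P15. The state effect on *Pim2* grew between the passages (interaction log2 1.28 ± 0.08, adjusted p = 1.09e-13 by the edgeR quasi-likelihood fit), opposite to *Pim1* and *Pim3*.

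**Figure D4:**
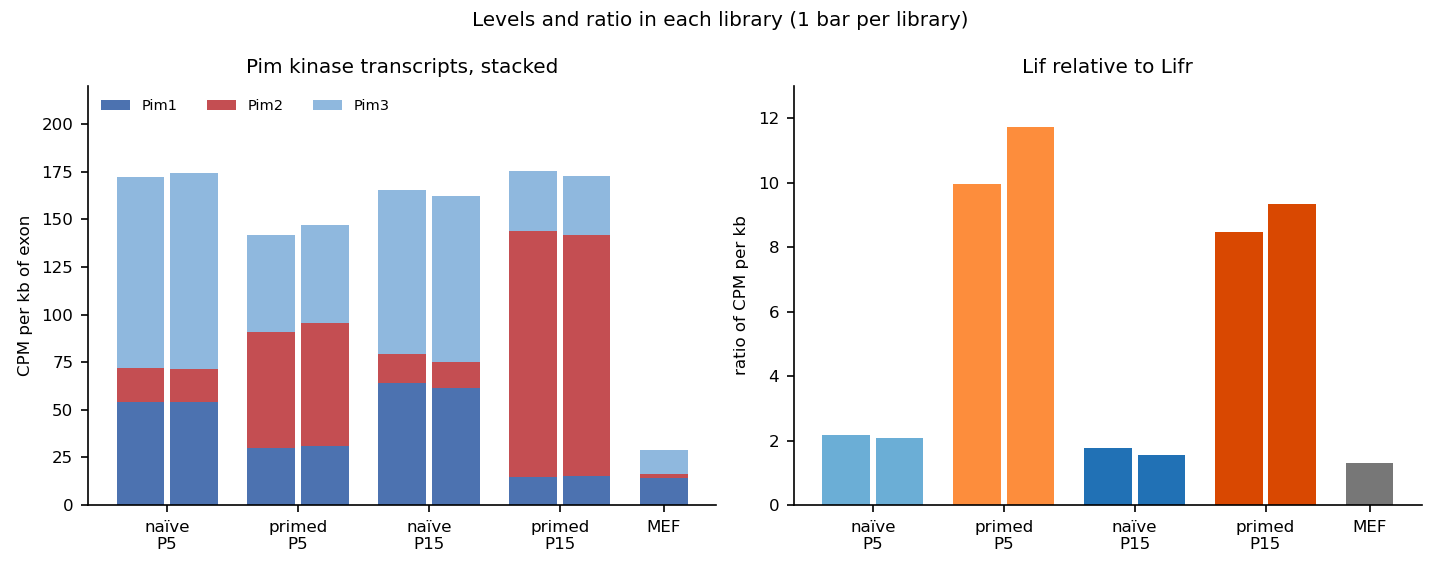
Left, CPM per kb of exon of Pim1, Pim2 and Pim3 stacked, 1 bar per library. Right, the ratio of Lif to Lifr in CPM per kb in the same libraries. The total height on the left stays between 142 and 175 outside MEFs while Pim2 takes over in primed cells, and the ratio on the right is above 8 in the 4 primed libraries and at most 2.17 in the others.

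Since both states grew on feeders, the level of each gene was set beside that of the MEF library. *Il6st*, *Osmr*, *Jak1* and *Stat3* were higher in MEFs than in each of the 8 other libraries, which stood at 23.2% to 32.0%, 35.8% to 57.4%, 56.9% to 63.1% and 43.5% to 55.0% of it. *Lif*, *Socs3*, *Bcl3*, *Pim1* and *Pim3* were lower in MEFs than in each of the others. Of the 8 defining fibroblast markers, the lowest in a library stood at 2.88% to 10.6% of MEFs (*Col1a1*, *Col3a1* or *Lum*), and the highest at 44.3% to 50.5% in naïve libraries (*Thy1*) and 216% to 354% in primed libraries (*Dcn*). These markers therefore did not stand at 1 common ratio to MEFs. MEF counts at the lowest of these levels would make up 12.4% to 40.5% of *Il6st*, and at the list median 55.4% to 99.99% of it. For *Pim3* they would make up 0.703% to 4.22% and 2.18% to 10.3%. With MEF counts taken off at the list median, the log2 difference of *Pim1* was -0.86 at P5 and -2.29 at P15 and that of *Pim3* -0.99 and -1.49, close to those without it, while that of *Il6st* went from -0.41 and -0.32 to -0.87 and -5.23. In primed P15 this took off 97.9% and 99.99% of *Il6st*, so the value of -5.23 rests on a very small remainder.

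**Figure D5:**
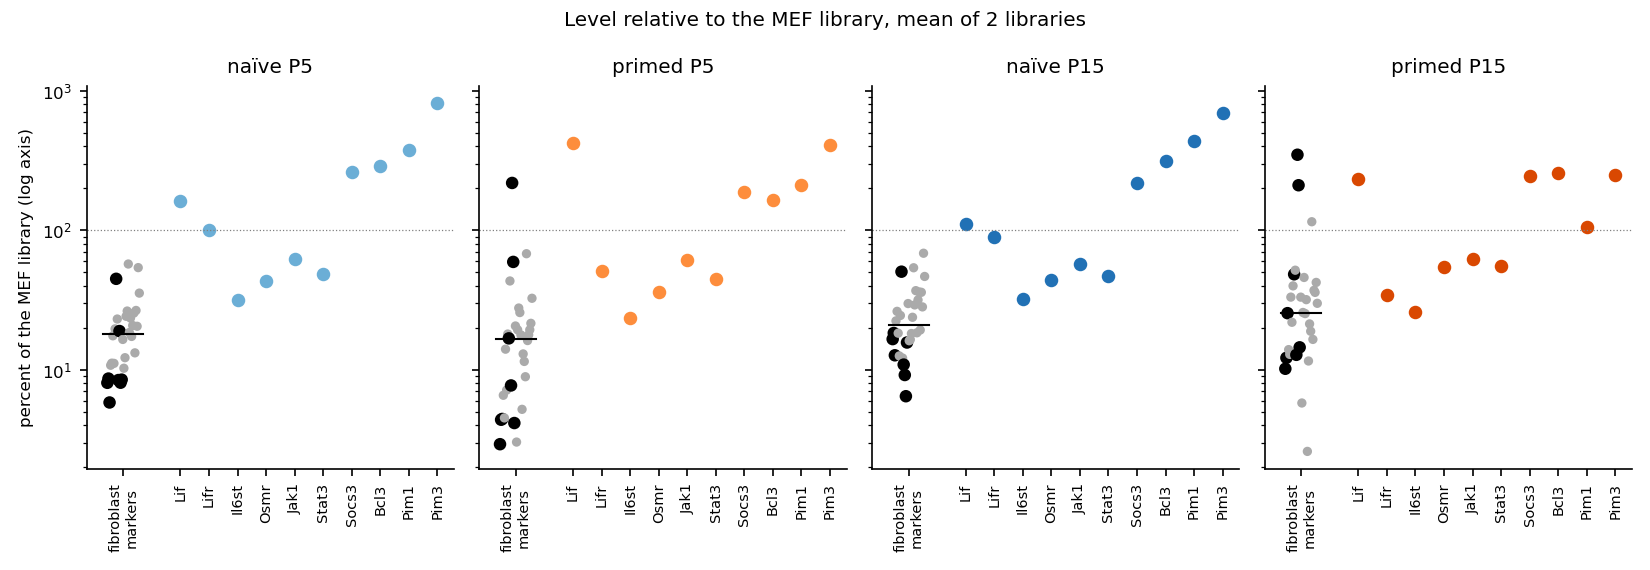
Level relative to the MEF library in percent (vertical log axis, mean of 2 libraries) for 30 fibroblast markers (defining ones in black, line at the median) and for the 10 genes, in each group. The dotted line marks the MEF level. Il6st lies near the line of the fibroblast markers in primed P15 and above it in the other groups, and Pim3 lies far above the MEF level in naïve cells.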

How the data were processed

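Poly(A) RNA libraries of naïve and primed cells (2 for each state at P5 and P15) and of MEFs (1) were analysed. Reads had been trimmed by the authors (Cutadapt), mapped to mm10 (HISAT2, option -k 20) and assigned to Ensembl genes (featureCounts). The deposited table holds raw counts, and the annotation release, the strand setting and the treatment of reads with several alignments are not given in the sources used here. Of 54324 entries, 92 were spike-ins with 0 counts, which were dropped, and GENCODE M21 named 54079 of the other 54232. Columns were matched to samples by title, with early and late cells as P5 and P15 from the study design.

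The software was R 4.3.3, edgeR 4.0.16 and, for an alternative, DESeq2 1.42.0. For each comparison the 4 libraries concerned (8 for the interaction) entered the quasi-likelihood fit of edgeR with TMM factors. Genes needed 10 counts or more in 2 or more libraries, and p-values were adjusted after Benjamini and Hochberg across the genes in the fit (16482 at P5, 15733 at P15, 15683 and 15957 for passage in naïve and primed cells, 16926 for the interaction). A call needed an adjusted p below 0.01, and counts at a fold change of at least 2 are given besides, both thresholds of the study. With 2 libraries a group, p-values measure the spread between these libraries, which may be technical. The replicates of each group differed by more than sampling noise. A gene without a count could be present at up to 3 counts, 0.148 to 0.221 CPM in naïve and primed libraries, which covers counting error only. Recovery was checked in counts simulated with a coefficient of variation between libraries of 0.04. The fits of the data gave 3.26% at P5, 4.79% at P15 and 4.05% for the interaction. In each simulation 67 genes were changed by 1.5-fold, 67 by 2-fold and 66 by 4-fold. For the P5 comparison, over 16123 genes, 88.1%, 97.0% and all of these were called. For the interaction, over 16346 genes, 67.2%, 94.0% and all were called. For the P15 comparison, over 15380 genes, 86.6% of the 1.5-fold changes and all of the larger ones were called, at a simulated spread below that of the data. The changed genes were drawn from those with higher mean counts than the filter asks for, and every gene had the same spread. Recovery of genes with lower counts was not checked.

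The 10 genes and all lists were chosen with earlier results of these data known. Of the further pathway genes, the 5 in each direction with the largest change among those called at 2-fold at both passages were named, ranked by the smaller of the 2 log2 values, apart from 1 that is not reported here and is also left out of the plot. Length is that of the merged GENCODE exons. Promoter windows are those of RefSeq on GRCm38.p6. MEF counts were taken off as alternatives, at the ratio of the lowest of 8 defining fibroblast markers or of the median of 30 markers. No protein sequence was used here.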

Additional observations from a re-analysis of the deposited data

Results flagged for a closer look

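The difference between primed and naïve cells was not the same at P5 and P15 for 8 of the 10 genes, by the interaction of state and passage in the edgeR quasi-likelihood fit. *Pim1* had the largest value, with a log2 difference of -1.24 between the contrasts (4 libraries of each state, primed P15 below all others). *Pim3* came next among the genes whose contrast became more negative with -0.51, followed by *Lifr* with -0.43 and *Lif* with -0.33, although *Lif* stayed higher in primed cells at both passages. The contrast became more positive for *Socs3* (0.64), *Osmr* (0.56), *Bcl3* (0.48) and *Stat3* (0.32). Among these, *Socs3*, *Osmr* and *Stat3* had primed libraries below the naïve ones at P5 and above them at P15. In all, 24.1% of the genes tested showed such a difference. Not all of the 8 calls were firm. Those of *Lif*, *Lifr*, *Stat3* and *Bcl3* were lost in 11, 9, 4 and 3 of 15 alternatives.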

How the results depend on the processing

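Of 650 values of single genes of the set under the alternatives, 563 kept their direction and their side of the threshold, 60 lost the call, 8 gained one and 19 changed sign (none of them a gene called in that comparison). The cause of these changes was not tested. Library size alone moved the median of all genes by 0.20 at P5, 0.10 at P15, -0.13 for passage in primed cells and -0.11 for the interaction, and the share of calls that were higher went from 50.1% to 65.8% at P5, from 51.5% to 34.2% for passage in primed cells and from 55.0% to 35.2% for the interaction. Under it, 2 of the 10 genes were higher at P5 and 5 at P15, 2 fell at least 2-fold with passage in primed cells, 2 had a more positive interaction, 3 pathway genes had one of at least 2-fold, and signs changed for *Stat3* at P5 (0.11), *Il6st* with passage in naïve (-0.0133) and primed cells (-0.0164) and in the interaction (-0.00285), and *Jak1* in the interaction (-0.00428). Without a low-count filter, 0 of the 10 genes rose and 1 fell with passage in naïve cells, 0 pathway genes fell at least 2-fold there and 1 rose in primed cells, 2 genes had a more negative interaction, and *Jak1* was at 0.0121 with passage in primed cells. Over all genes, the 1446 called with passage in naïve cells became 551 without the filter and 869 with MEF counts taken off at the list median. DESeq2's Wald test gave 2 genes with a more negative interaction, and the fit of 8 libraries gave *Jak1* -0.00485 at P5.

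With MEF counts taken off at the lowest defining marker and at the list median, 1 and 1 genes of the set were at least 2-fold lower at P5, 2 and 3 pathway genes fell at least 2-fold with passage in naïve cells, and 2 and 4 rose so in primed cells. *Il6st* changed sign under both with passage in naïve (-0.0101 and -0.26) and primed cells (-0.28, called, and -4.61, called) and in the interaction (-0.27, called, and -4.34, called). The values of -4.61 and -4.34 rest on the very small remainder of *Il6st* in primed P15. At the list median alone, 11 pathway genes were at least 2-fold higher at P15, 1 of the 10 genes fell with passage in naïve cells, where *Osmr* was at -0.0767, 3 fell at least 2-fold with passage in primed cells and 3 had an interaction of at least -1.

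Leaving out each library in turn gave 0 to 1 genes of the set at least 2-fold lower at P5, 0 to 1 at least 2-fold higher at P15, 0 to 1 that rose and 0 to 2 pathway genes that fell at least 2-fold with passage in naïve cells, 0 to 1 genes that fell and 0 to 1 pathway genes that rose at least 2-fold in primed cells, and 2 to 4 genes with a more positive and 2 to 4 with a more negative interaction. *Jak1* ranged from -0.0203 to 0.0399 at P5 and -0.0375 to 0.0212 with passage in primed cells, and *Il6st* from -0.0036 to 0.0173 and *Osmr* from -0.0193 to 0.0727 with passage in naïve cells.

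Nothing in the labels says that a replicate number marks shared material, and with 2 libraries a group the check of pairing is weak. Deviations of same-numbered libraries correlated at -0.127 between the states at P5 and -0.190 at P15, but at 0.161 between the passages in naïve and 0.159 in primed cells. The block moved the count of all genes called with passage in naïve cells from 1446 to 2783 and that in primed cells from 7518 to 8312. With the replicate number as a block, 2 genes of the set were higher and 4 lower at P15, where *Stat3* and *Bcl3* lost their calls, and 2 had a more negative interaction, where *Lif* and *Lifr* lost theirs. The block changed no other call of the 10 genes. With crossed pairs, a pairing chosen after seeing the data, 1 was higher and 7 lower at P5 and 4 and 5 at P15.

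With 2 libraries a group from 1 line, small differences such as those of *Stat3*, *Osmr* and *Bcl3* at P15 rest on single libraries. Levels of genes that MEFs express more than the cells, *Il6st* above all, cannot be split between cells and feeders here.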
